A study of Mus musculus with 10 samples.

Results

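Runs of 5 to 9 GLIS3 binding sites were described in the mouse thyroid gland. Sites were sorted by chromosome and midpoint, and neighbours whose midpoints lay at most 10000 bp apart were joined into a run. Of 18513 sites, 2061 (11.1%) lay in such runs, and these formed 345 runs. There were 152 runs of 5 sites, 102 of 6, 53 of 7, 24 of 8 and 14 of 9. The members were chosen by the positions of sites that had been called from the tags and folds of this same ChIP experiment, so tags, folds and distances are given as a description, with no test.

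Thyroid glands were taken from Glis3-EGFP mice on a C57BL/6 background, which make GLIS3 fused to EGFP from the Glis3 gene. These mice were kept for 2 weeks on a low-iodine diet (LID). Chromatin was pulled down with agarose carrying a peptide that binds GFP. The control was the same pull-down from wild type (WT) thyroid glands, C57BL/6 and on the same diet for 2 weeks, which hold no GFP. Each group was 1 library of whole gland, so the variation between animals is unknown, and all intervals cover counting error only. After selection the ChIP held 4516562 tags, and the control held 5171171. The age of the mice in either group and the number of animals behind each library are not given in the sources used here. Whole gland holds other cells beside follicular cells, and GLIS3 binding was not assigned to a cell type here.

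GLIS3 is a Krüppel-like zinc finger transcription factor that binds regulatory DNA of genes used by thyroid follicular cells to make thyroid hormone, among them the sodium-iodide symporter gene. A low-iodine diet raises thyroid stimulating hormone (TSH), which drives these genes. Transcription factor sites often lie in groups along an enhancer or across several enhancers and the promoter of a gene. The positions are in the mm9 build, for which no genome or gene annotation was used here, so no sequence and no gene is given for a run.

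The 10 runs with the most tags each held 1 to 3 sites with more than 50 tags, with weaker sites between and beside them. The run with the most tags in all lay at chr4:125800651-125810671 and held 8 sites. In order along the chromosome their tags were 20, 17, 11, 50, 175, 33, 155 and 10. The site with 175 tags (95% Poisson interval 150 to 203) was the second strongest of the whole list, and the site with 155 tags (132 to 181) lay 840 bp from it. These intervals do not overlap those of the other 6 sites of the run.
The next run, at chr9:97892851-97899431, also held 8 sites, with 52, 9, 22, 118, 44, 12, 90 and 9 tags within 6540 bp from first to last midpoint. Here 3 sites stood above 50 tags, and sites at the minimum of 9 tags lay between or beside them. The run at chr12:113044791-113058351 held 8 sites as well, with 97, 10, 10, 51, 38, 46, 92 and 11 tags. Its median of 42 tags and its median fold of 48.1 over the WT GFP ChIP were the highest of the 345 runs, each shared with 1 other run. One strong site began this run, and a group of 4 sites with 38 to 92 tags followed from 8760 bp on.

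The run of 5 sites with the most tags, at chr15:89144871-89157251, had 124, 131, 12, 14 and 33 tags. Its strong sites lay 8360 bp apart, and their intervals (103 to 148 and 110 to 155) overlapped. The run of 6 sites with the most tags, at chr7:30246711-30255071, began with its strongest site and had 143, 24, 9, 57, 18 and 23 tags. The run of 7 sites with the most tags, at chr5:115170811-115188671, had 27, 92, 20, 10, 34, 34 and 33 tags. In this run 1 site stood out, and the next highest were 3 sites of 33 or 34 tags. The run of 9 sites with the most tags lay on chromosome 18 and spanned 23920 bp. It had 28, 10, 30, 15, 20, 118, 32, 12 and 28 tags, so a single site held 40.3% of its tags.
The other 3 of the 10 runs lay at chr8:46695991-46713571, with 8 sites, a strongest of 127 tags and a next strongest of 42, on chromosome 18, with 5 sites, a strongest of 155 and a next of 55, and at chr15:36417251-36421771, with 6 sites, a strongest of 93 and a next of 75. In 8 of these 10 runs the strongest site was not the first or the last.

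**Figure D1:**
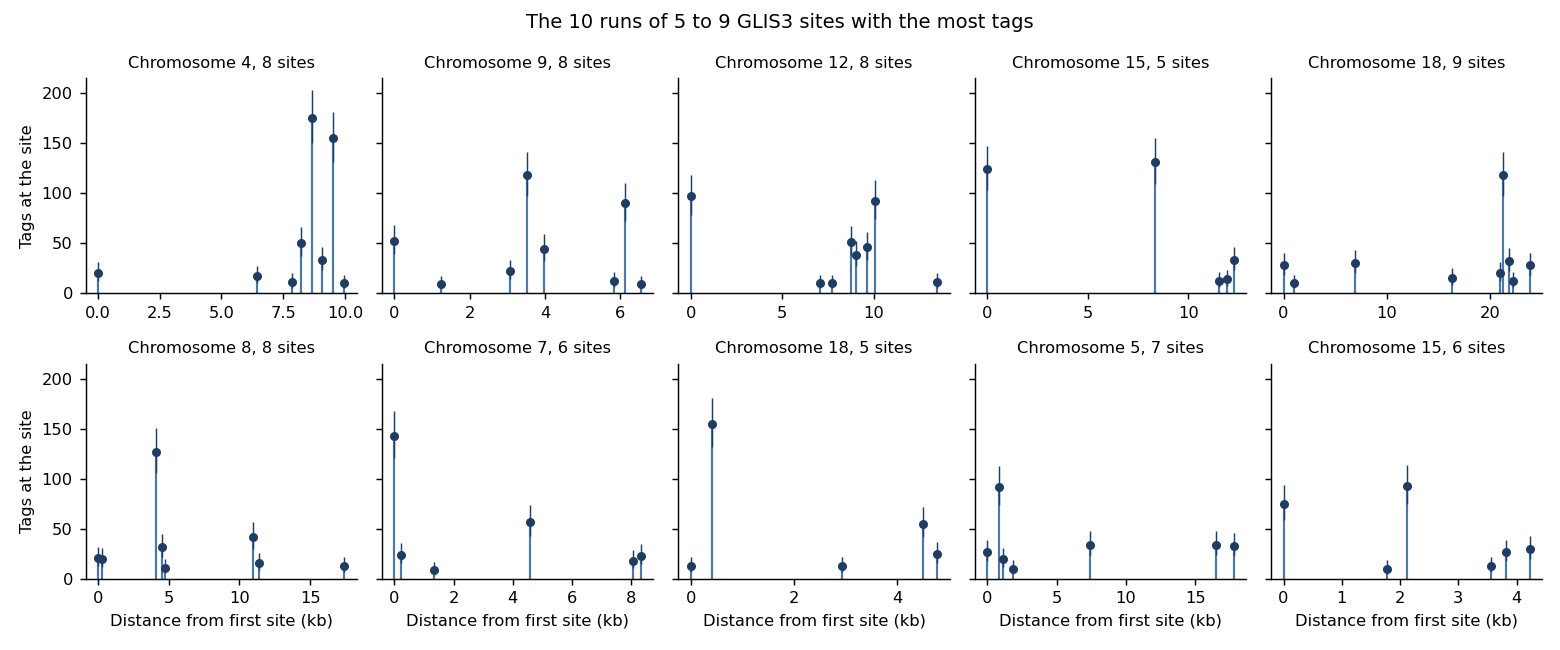
Tags at each site (vertical axis, points, with 95% Poisson intervals as lines) against distance from the first site in kb (horizontal axis) for the 10 runs of 5 to 9 GLIS3 sites with the most summed tags, 1 panel each. In the first panel, 2 sites of 175 and 155 tags stand above 6 sites of 10 to 50 tags.

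Strong sites made up a larger share of these runs than of the list, while the typical member was close to the typical site. Of the members, 130 of 2061 had more than 50 tags, or 6.31% (95% Wilson interval 5.34 to 7.44), beside 2.93% of all 18513 sites. The share was 1.59% of the 8236 sites with no neighbour within 10000 bp, 3.31% of the 8012 sites in runs of 2 to 4, and 8.33% (5.27 to 12.9) of the 204 sites in runs of 10 or more. Sites of a run share a region, and the intervals treat them as independent.
The median member held 14 tags, with quartiles of 10 and 22, beside 13 tags (10 and 19) over all sites. The lower quartile was thus the same, and the 90th percentile was 39 tags in members and 29 in all sites. At the bottom of the range, 295 members (14.3%, 12.9 to 15.9) had 9 tags, the fewest a called site could have, beside 17.1% (16.5 to 17.6) of all sites. Members made up 13.4% of all tags at sites.

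The share of sites that were members was higher at higher tags. It was 9.34% of sites with 9 tags, 10.8% of those with 13 to 19, 12.4% with 20 to 29, 15.5% with 30 to 50, and 20.1% (16.6 to 24.1) of the 438 sites with 51 to 84. Of the 105 sites with 85 or more tags, 42 were members, or 40.0% (31.1 to 49.6). The interval of this last level does not overlap that of any lower level, whereas those of 9 and of 10 to 12 tags overlap. These intervals treat sites as independent. All sites of a run share membership, and the intervals do not cover this, so their overlap is not a test. Over the same levels, sites with no neighbour within 10000 bp went from 49.0% at 9 tags to 12.4% at 85 or more, and sites in runs of 2 to 4 stood at 40.7% and 40.0%. Sites in runs of 10 or more went from 0.918% to 7.62%, so the rise with tags was not particular to runs of 5 to 9. Of the 10 strongest sites of the list, 6 were members.

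**Figure D2:**
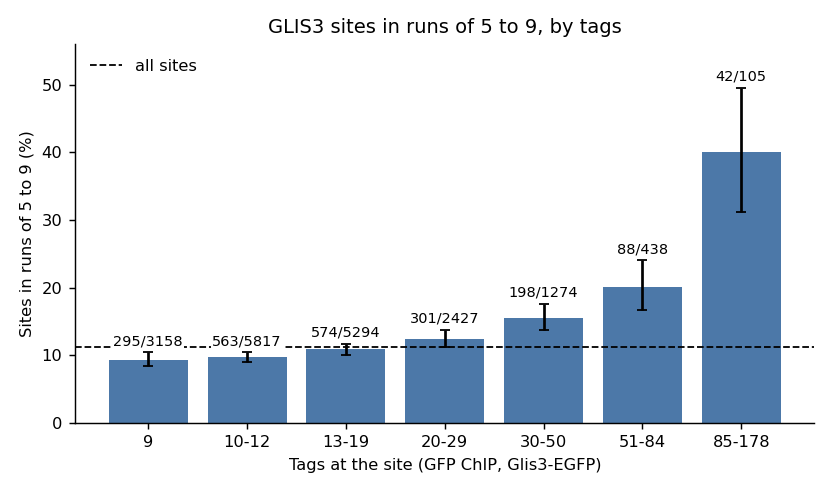
Share of GLIS3 sites that lay in runs of 5 to 9 (bars, %, with 95% Wilson intervals) by the number of tags at the site, with the number of members over the number of sites above each bar. The share goes from 9.34% at 9 tags to 40.0% at 85 to 178 tags, and the dashed line marks the 11.1% of all sites.

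The strongest members were spread over many runs and chromosomes. Besides those on chromosome 4 and on chromosome 18, with 155 tags, the 10 strongest were a site with 148 tags (125 to 174) at chr10:59387131-59387171, in a run of 8, and the first site of the run on chromosome 7, with 143 tags. They also included a site with 141 tags at chr17:66198271-66198311, in a run of 5, and a site with 139 tags at chr5:64899911-64899971, in another run of 5. The rest were those with 131 and 124 tags on chromosome 15 and with 127 tags on chromosome 8. The intervals of neighbours in this order overlap, so the order of neighbours is not resolved by 1 library. Among these 10 sites, 9 had 0 or 1 control tag and 1 had 2.

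Within a run, tags were uneven. The strongest site of a run held a median of 36 tags (quartiles 24 and 59), the next 22 (16 and 30), the one after 16, then 13 and 11. A median of 32.8% of the tags of a run lay at its strongest site, where an even split would give 16.7% in the median run. The highest count was a median of 3.85 times the lowest (quartiles 2.44 and 5.91), and the lowest could not go under 9. In runs of 3 and 4 the strongest site held a median of 44.7% (33.3% if even), and the ratio was 2.22. In runs of 10 or more it held 24.6% (8.71% if even), and the ratio was 7.33. Uneven tags were thus not particular to runs of 5 to 9.
In 232 of the 345 runs (67.2%) the 95% Poisson intervals of the strongest and the weakest site did not overlap, beside 27.9% of all 3642 runs of 2 or more sites. The strongest and weakest were picked for each run, and a run of more sites has more to pick from. The share was 59.9% in runs of 5, 67.6% in runs of 6, 77.4% in runs of 7, 87.5% in runs of 8 and 71.4% in the 14 runs of 9. In the other 113 runs the spread of tags did not exceed counting error by this measure.
Sites of the same run were hardly more alike in tags than sites of different runs. Of the variance of log2 tags over members, 1.5% lay between runs and the rest between the sites of a run. By size this share went from 0 in runs of 7, where a negative estimate is set to 0, to 6.16% in runs of 8. In the 16 runs of 10 or more it was 7.72%, so no contrast with longer runs can be read from it.

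**Figure D3:**
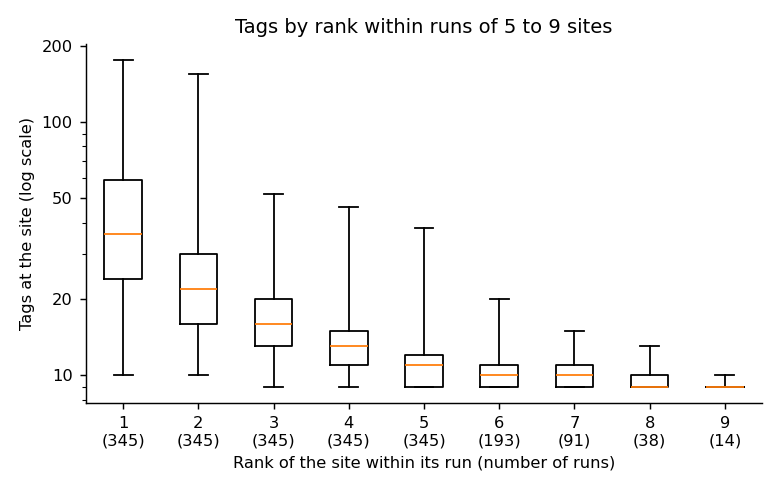
Tags at a site (log scale) by its rank within its run, for the 345 runs of 5 to 9 GLIS3 sites. Boxes give quartiles and medians and whiskers the lowest and highest value, and the medians fall from 36 tags at rank 1 to 11 at rank 5 and 9 at rank 9.

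Most runs with a strong site had only 1. A site of more than 50 tags was found in 111 runs (32.2%), beside 10.5% of all 3642 runs of 2 or more sites, 7.99% of runs of 2 to 4 and 62.5% of the 16 runs of 10 or more. A run with more sites has more chances to hold one. Of these, 94 had 1 such site, 15 had 2 and 2 had 3 or more, the latter being the runs of 8 on chromosomes 9 and 12. In the 15 runs with 2 such sites, these lay 840 to 11900 bp apart with a median of 4740 bp. In 49 runs no site reached 20 tags. By size, a site of more than 50 tags was present in 23.0% of runs of 5, 37.3% of runs of 6, 39.6% of runs of 7, 54.2% of runs of 8 and 28.6% of runs of 9. Counted per site, the shares were 5.26%, 7.19%, 5.93%, 10.4% and 3.17%, in the same order. The interval for runs of 9 (1.24 to 7.88, 4 of 126 sites) overlaps those of all other sizes, so no order by run size can be read from it.

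The runs with the most concentrated tags had 1 strong site beside sites near the minimum. At chr12:86112131-86125871 the 5 sites had 113, 11, 11, 10 and 11 tags, and 72.4% of the tags lay at the first. At chr8:34951711-34957111 the 6 sites had 93, 10, 12, 9, 10 and 9 tags. The run at chr17:66190071-66202811 had 19, 9, 35, 141 and 9 tags, with 66.2% at 1 site. In the runs on chromosomes 12 and 8 all other sites had 9 to 12 tags, which counting error does not separate, and in the run on chromosome 17 they had 9 to 35.
At the other end, the run of 9 sites at chr8:87235311-87255551 had 12, 18, 13, 16, 17, 9, 19, 12 and 9 tags, and 15.2% lay at the strongest. No site of this run stood apart from the others within counting error. Each of its sites had 0 or 1 control tag, and its median fold was 14.9, equal to the median of all members.

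The strongest site had no fixed place in a run. In 232 of 345 runs (67.2%) a site inside the run was stronger than both end sites, and inside positions made up 65.5% of positions on average. By size the share was 61.2% of runs of 5, where 60.0% of positions are inside, and 62.7% of runs of 6, where 66.7% are. It was 81.1% of runs of 7 (71.4% of positions), 83.3% of runs of 8 (75%) and 85.7% of runs of 9 (77.8%). A tie between an inside and an end site counted as not inside. The strongest and the next strongest site of a run lay a median of 4690 bp apart, with quartiles of 1820 and 8450, and in 62 runs (18.0%) they lay within 1000 bp. In 23 runs the highest count was shared by 2 or more sites.
The tags of the other members hardly changed with distance from the strongest. Members within 500 bp of the strongest site of their run had a median of 13 tags (206 sites), those at 2000 to 5000 bp 13 (383 sites), those at 5000 to 10000 bp 12 (490 sites) and those farther off 13 (367 sites).

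The runs were short beside the 10000 bp that each of their gaps could have spanned. The span per gap was a median of 2.69 kb, beside 2.62 kb in runs of 3 and 4 and 2.75 kb in runs of 10 or more. The median run spanned 13220 bp from first to last midpoint, with quartiles of 9070 and 17510 and a range of 1550 to 35080. The median span was 11220 bp for runs of 5, 13215 for 6, 14460 for 7, 21795 for 8 and 23505 for 9. The shortest run, at chr11:107509931-107511571, held 5 sites with 54, 19, 22, 22 and 11 tags within 1550 bp. The next shortest lay at chr7:53868651-53871091, with 87, 48, 11, 9 and 20 tags within 2390 bp, and at chr17:84671431-84674551, with 6 sites within 3010 bp.
The longest run, at chr7:75207091-75242451, held 8 sites with 12, 10, 9, 18, 50, 10, 13 and 20 tags, and was followed by runs of 9 sites at chr13:41417311-41451131, spanning 33720 bp, and at chr9:59539491-59571971, spanning 32360 bp. The long run on chromosome 13 had no site above 42 tags, whereas that on chromosome 9 had 1 site with 91.

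**Figure D4:**
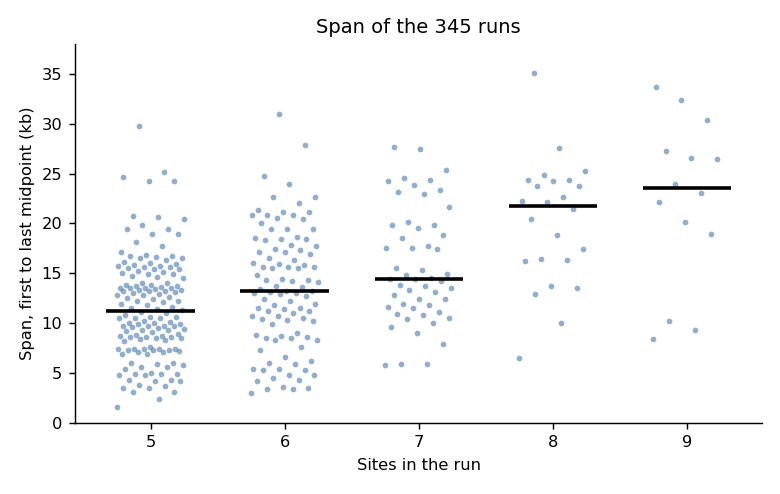
Span from first to last midpoint in kb (vertical axis) of each of the 345 runs (points) by the number of sites in the run (horizontal axis), with medians as lines. Spans go from 1550 to 35080 bp, and the sizes overlap widely.

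Many neighbours in a run lay very close to each other, as they did in runs of other sizes. The 1716 gaps had a median of 1665 bp with quartiles of 460 and 4430. Of these gaps, 464 (27.0%) were at most 500 bp and 650 (37.9%) at most 1000 bp. The shortest was 210 bp, close to the fragment length of 204 bp that the caller used. In runs of 2 to 4 the median gap was 1730 bp, with 40.3% of gaps at most 1000 bp. In runs of 10 or more it was 1930 bp, with 34.0%, so close spacing was not particular to runs of 5 to 9. Of the members, 965 (46.8%) had no other within 1000 bp, 598 (29%) lay in pairs at that distance, 294 in groups of 3 and 204 in groups of 4 to 6.
Strong members had close neighbours more often. Another site lay within 500 bp of 35.9% of members with 9 tags, 39.5% of those with 20 to 29, 51.5% with 30 to 50, 69.3% with 51 to 84 and 59.5% with 85 or more. Over all sites the same shares went from 16.0% at 9 tags to 55.2% at 85 or more. The median width of a member was 60 bp at 9 to 12 tags, 100 bp at 13 to 29, 60 bp at 30 to 50 and 40 bp above. The part of the caller in placing several sites near a strong one was not tested. With sites within 1000 bp merged and the strongest kept, 127 runs of 5 to 9 with 723 sites were built from the merged list. Of these sites 6.36% had more than 50 tags, beside 3.39% of all merged sites. Among merged sites with no neighbour within 10000 bp the share was 2.58%, beside 1.59% before merging. Keeping the strongest site of each group can raise such shares by construction. Of the 345 runs themselves, 118 kept 5 or more sites after merging.

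Most members had little or no signal in the WT GFP ChIP. At 1983 of the 2061 members the control tags, computed back from the fold, came within 2% of a whole number, where 1 stands for 0 or 1. Of these, 1623 (81.8%, 80.1 to 83.5) had 0 or 1 control tag, beside 81.6% of all sites, and 115 (5.80%, 4.85 to 6.92) had 3 or more, beside 5.22%. Both shares were close to those of the whole list. The median fold was 14.9, with quartiles of 11.5 and 22.9, beside 13.7 over all sites, and it is a lower bound where the control had no tag. A p-value of at most 0.001 in the authors' caller was found at 1815 members (88.1%), beside 86% of all sites. These were also the numbers of members and of sites with a fold of at least 10, in which the same control tags are used.

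A single run stood apart by its control tags. The run of 9 sites at chr11:3075871-3102511 had 13, 12, 9, 9, 14, 15, 12, 13 and 21 tags, and folds from 2.48 to 24.0 with a median of 4.58, the lowest of the 345 runs. Its control tags were 5, 2, 3, 4, 3, 3, 6 and 1 at the 8 sites where they could be recovered, a median of 3. The midpoint of its first site lay 12890 bp from that of the last site of a run of 15 on the same chromosome. At a p-value of at most 0.001 it kept 2 of its 9 sites. In 318 of the 345 runs the median was 1 control tag, and in the other 26 it lay above 1 and below 3, with 11 runs tied at 2.
Among these 11, the run at chr8:129118231-129127611, with 9 sites of 9 to 19 tags, had a median fold of 6.30 and 2 control tags, and kept 4 sites at that p-value. Of the runs tied at 2, those with the most tags were the run at chr12:86112131-86125871 and the run at chr4:56950211-56960491. The latter had 18, 12, 85, 9 and 13 tags, and 48.7 as the fold of its strongest site. In the run on chromosome 12, the last site had 5 control tags and a fold of 2.52. In all, 4 runs had a median fold under 10, and 94 runs held at least 1 site with 3 or more control tags. A run with more sites has more chances to hold one. Where control tags could be recovered, 5.80% of members had 3 or more, near the 5.22% of all sites.

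**Figure D5:**
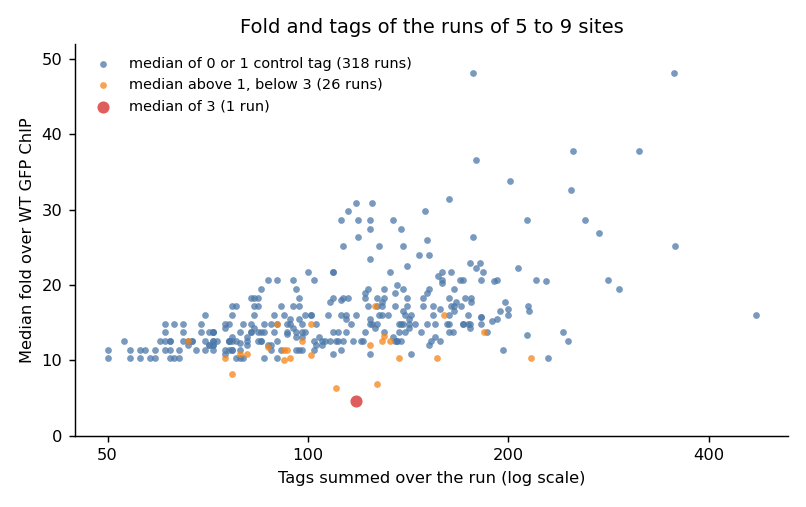
Median fold over the WT GFP ChIP (vertical axis) against summed tags (horizontal axis, log scale) for the 345 runs of 5 to 9 sites (points), coloured by the median number of control tags of the run. The run with a median of 3 control tags lies lowest, at a fold of 4.58.

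Runs kept their sites to different degrees at stricter limits. All sites of 170 runs (49.3%) had a p-value of at most 0.001, beside 66.9% of all 3642 runs of 2 or more, 68.9% of runs of 2 to 4 and 25% of runs of 10 or more, and a run with fewer sites meets this more easily. At this p-value 254 runs kept 5 or more. With at least 13 tags per site, 14 runs kept all sites, 77 kept 5 or more, 184 kept 3 or 4 and 84 kept 2 or fewer. Over the whole list, 9538 of 18513 sites had at least 13 tags. With sites of 3 or more control tags left out, 249 runs kept all their sites, and 17562 of the 18513 sites of the list remained. Under either limit a run with more sites loses one more easily. The run on chromosome 4 with the most tags kept 8 sites at the p-value and 6 at 13 tags.

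The members lay on all 19 autosomes. They made up between 3.42% of the sites of a chromosome, on chromosome 3 (27 of 790 sites, 5 runs), and 16.7%, on chromosome 8 (161 of 966 sites, 26 runs), with a median of 10.7%. Chromosome 4 held the most runs, 35, with 15.9% of its sites. Chromosome 13, which had 792 sites, about as many as chromosome 3, held 11 runs with 71 sites (8.96%). None of the 178 sites on the X chromosome was a member. Members come in blocks of 5 to 9 neighbouring sites, so no upper limit for this share is given. The median tags of members were alike on the autosomes, from 13 to 15.5. The highest share of members with more than 50 tags was on chromosome 18, at 12.1% (8 of 66 sites, 6.27 to 22.1), beside 3.71% of all 620 sites there. On chromosome 15 it was 9.90% (10 of 101 sites, 5.47 to 17.3), beside 2.79% of all 825 sites there. On chromosomes 3 and 14 the share was lower than that of all sites there, and on the other autosomes it was higher. Chromosome 3 had 0 of 27 members above 50 tags, beside 2.41% of all its sites. Chromosome 14 had 1.41% of members, beside 1.90%. The intervals of the members' shares on all 19 autosomes overlap each other, so no order among chromosomes can be read from them.

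The nearest site outside a run lay at a median of 21710 bp, with quartiles of 13730 and 38240. It lay within 20000 bp for 155 runs, and 13 runs had another run of 5 or more sites within that distance. The limit of 10000 bp thus cut some stretches that a slightly longer one would have joined. Just inside it, a gap of 10000 bp joined a site with 14 tags at chr11:94119331-94119491 to a run of 6, and a gap of 9990 bp joined a site with 27 tags at chr5:123857251-123857291 to another run of 6. Just outside it, gaps of 10010, 10030 and 10040 bp kept sites with 10, 9 and 29 tags apart. The run of 4 sites with the most tags, at chr15:97651831-97655831, had 213 tags in all, of which 83.6% lay at the strongest site of the whole list. Just beyond the upper limit, the run of 10 sites with the most tags, at chr8:125047051-125071791, had 222 tags in all with a strongest site of 79.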

How the data were processed

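The authors aligned the reads with Bowtie to mm9, per the submitters' processing notes (version not given in the sources used here). Sites were then called by SISSRs 1.4 against the WT GFP ChIP (P-value 0.05, E-value 10, scanning window 20 bp, fragment length 204 bp). The deposited count is the tags at a site, the deposited fold is a ratio to control tags scaled by library size, and the deposited p-value is the caller's. At least 9 tags were needed.

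From these, runs were built, control tags were recovered from tags, fold and library sizes, and values were summarised as medians, quartiles, exact Poisson and Wilson intervals. Whether a tag between close sites was counted at both is not stated, so summed tags may count some more than once. Positions are 1-based as deposited. A chromosome 1 site ending at 197068111 lies past the end of that chromosome in GRCm38, so the GRCm38 reference was not used. Only run building and the recovery of control tags were tested on a simulated list. Its runs lay well apart and its control tags were all whole numbers.

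Members, lists and summaries were chosen with earlier results of these data known. Runs named are the 10 with the most tags, the richest of each size, and the extremes of control tags (ties by most tags), span and share of tags at the strongest site (3 each). The 10 strongest members are also named. Gene lists and motifs were planned only for an mm9 reference and were not run. The RNA-seq and input libraries were not analysed here. Software was Python 3.11.15 with pandas 2.3.3, NumPy 2.4.6, SciPy 1.17.1 and Matplotlib 3.10.9.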

Additional observations from a re-analysis of the deposited data

How the results depend on the processing

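Only counting error is known for 1 library per group. Since a site needed at least 9 tags, weaker sites within or beside a run could not be seen at this depth. The limits that define a run set its number. At a joining distance of 5000 bp there were 164 runs with 941 sites, a median span of 6770 bp, a median gap of 1090 bp, 34.3% of tags at the strongest site and 80.0% of members with 0 or 1 control tag. At 20000 bp there were 551 runs with 3370 sites, a median span of 24220 bp and a median gap of 2910 bp. With a p-value of at most 0.001 before runs were built, the median was 15 tags, the median fold 16.0 and the share with 0 or 1 control tag 93.5%, since the p-value uses the control. With at least 13 tags, 72 runs with 404 sites were built, with a median of 21 tags by construction, a median fold of 20.6, 78.5% with 0 or 1 control tag, a median gap of 1895 bp, 61.1% of runs with the strongest site inside and 36.2% of tags at it. With sites within 1000 bp merged there were 127 runs with 723 sites, a median span of 19500 bp and a median gap of 3660 bp. With sites of 3 or more control tags left out, 87.1% had 0 or 1. With gaps measured between site edges there were 348 runs with 2080 sites, a median span of 13350 bp and a median gap of 1580 bp, and all values lay within 1.5 times the original counts or inside the original 95% intervals. The share of members with more than 50 tags, examined after seeing the data, was 5.04% at 20000 bp, 8.50% at 5000 bp and 13.4% at 13 tags, where all sites had 5.69%, and at every one of the 7 settings it was above that of all sites. Gene context and motifs, which need an mm9 reference, were planned and not done. No paired analysis was possible because ChIP groups have 1 library each and no values of the numbered RNA libraries were used.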

Other observations

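The 3 runs with the smallest share of tags at the strongest site all lay on chromosome 8. Beside the run at chr8:87235311-87255551, these were the run at chr8:126771591-126796071, whose 8 sites had 10, 11, 18, 18, 9, 12, 14 and 13 tags, and the run with 2 control tags in the median at chr8:129118231-129127611. This share is lower by construction in runs with more sites, and these runs had 8 or 9. By the ratio of the highest to the lowest site, examined after the values were seen, the order was different. The ratio was 2.00 to 2.11 in these 3 runs, and 49 of the 345 runs had a ratio of at most 2.00. The lowest ratios were 1.11 in a run of 6 sites at chr2:70959071-70972371, with 9 or 10 tags at each site, 1.2 in a run of 5 at chr5:143574631-143583151 and 1.22 in a run of 5 at chr7:120291951-120295131. None of these lay on chromosome 8. By the first measure, a run on chromosome 2 (17.4%) and a run on chromosome 10 (17.5%) came close. The runs at chr8:126771591-126796071 and chr8:129118231-129127611 had 17.1% and 17.3%. No pattern by chromosome can be read from 3 runs.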
